A study of Mus musculus with 2 samples.

Results

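The clustered protocadherins were taken as every row of the deposited feature list whose symbol begins with Pcdha, Pcdhb or Pcdhg, which gave 57 of 32289 features. Of these, 14 belong to the alpha cluster (Pcdha), 22 to the beta cluster (Pcdhb) and 21 to the gamma cluster (Pcdhg). The members were chosen by name, with the difference between the libraries in neurons already known from an earlier look at these data, so the values below describe them and support nothing further. In the GENCODE M21 annotation all 57 lie on the plus strand of mouse chromosome 18, within 912 kb, in the order alpha, beta, gamma. A pair of rows carries the symbol Pcdha11 and is told apart here by the Ensembl identifiers, ENSMUSG00000007440 and ENSMUSG00000102206.

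Clustered protocadherins are cell-surface proteins of the cadherin superfamily that bind across a contact only when the same isoforms meet. Each alpha and gamma isoform joins its own large first exon, which codes for the whole extracellular part, to short constant exons shared by the cluster, whereas a beta gene codes for its protein in a large exon of its own with no shared constant part. A neuron switches on a small and largely random set of the alternative promoters, helped by CTCF and cohesin and held by DNA methylation, and the resulting combination of isoforms lets a neuron tell its own branches from those of others. The C-type isoforms (Pcdhac1, Pcdhac2, Pcdhgc3, Pcdhgc4 and Pcdhgc5) are the exception, being used more broadly or by given cell types; Pcdhgc4 is known for its part in the survival of neurons and Pcdhgc3 for its part in dendrite growth. Glia use the clusters too.

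The study profiled nuclei of the anterior hypothalamus with the preoptic area from male mice of 2 ages, and its title names supraoptic vasopressin neurons, water balance and temperature control in ageing. The first library came from mice aged 22 months (aged) and the other from mice aged 3 months (young) that the labels describe as wild type. Tissue of 5 mice was pooled for each library, after which myelin was removed with beads and DAPI-stained nuclei were sorted. Neither the strain nor the genotype of the aged mice is stated in the labels. Each age has a single library and so no replicate: age, pool and library cannot be told apart, no test is given, and every interval in brackets is an exact 95% interval that covers counting error only.

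Barcodes with 500 or more genes and at most 5% mitochondrial counts numbered 8597 aged and 10437 young, and 373 and 485 of them were left out as doublets. Only 25 barcodes occurred in both libraries. Neurons made up 4995 aged and 6430 young nuclei, with medians of 8355 and 7762.5 unique molecular identifiers (UMIs), that is, counted RNA molecules. A further cluster of 520 aged and 89 young nuclei had medians of only 683.5 and 710 UMIs, was left unnamed and enters no value for a class. Levels are UMIs scaled to a total of 1000000 UMIs of the same nuclei (CPM). Because free RNA adds UMIs to every droplet, the level in barcodes of 100 or fewer UMIs is given beside the results as the background. In those barcodes the summed Pcdhb level was 83.3 CPM in the aged and 54.7 CPM in the young library, a ratio of 1.52 (1.18 to 1.97). Summed Pcdha stood there at 13.5 and 18.6 CPM and summed Pcdhg at 34.5 and 46.6 CPM. The level of Pcdhb in these barcodes thus moved with its level in neurons. With their profile subtracted from the neurons, in the share that brings myelin genes there to 0 (9.79% of aged and 8.66% of young neuron UMIs), the ratio of summed Pcdhb given below was 1.70.

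In neurons the beta cluster was the one that differed most between the libraries. Summed Pcdhb gave 4895 aged and 3494 young UMIs, or 105 against 62.6 CPM, a ratio of 1.68 (1.61 to 1.76). The alpha cluster gave 1383 and 1362 UMIs, or 29.7 against 24.4 CPM, and its ratio was 1.22 (1.13 to 1.31). The gamma cluster gave 3849 UMIs in each library, or 82.7 against 69.0 CPM, and its ratio was 1.20 (1.15 to 1.25). All 3 sums were higher in the aged library, and the interval of Pcdhb did not overlap those of the other clusters. The list of 7 oligodendrocyte markers stood in neurons at 186 CPM in the aged and 164 CPM in the young library, with 7 of 7 genes higher in aged. Astrocyte markers stood there at 68.2 and 59.3 CPM with 6 of 7 higher, precursor markers at 217 and 197 CPM with 2 of 7 higher, and microglia markers at 88.9 and 100 CPM with 5 of 7 higher; no marker of these lists was at 0.

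A member was called at a ratio of 1.5 or more, or of 1/1.5 or less, provided it had 50 or more UMIs over both libraries. Across all 18016 genes that met the minimum, 3.00% were called higher in aged neurons and 6.39% lower, while 52.9% had a ratio above 1. Of the 57 members 54 met it. Pcdha3, Pcdhac1 and Pcdhb1 did not, with 20 and 29, 8 and 10, and 10 and 2 UMIs in the aged and young library. The minimum was met by 21 of 22 Pcdhb members, of which 12 were called higher in aged and 0 lower. Of the 12 Pcdha members that met it 2 were called higher, and of the 21 Pcdhg members 3 were. None of either cluster was called lower. These small counts moved with the processing. For Pcdha they moved to 4 with doublets kept or free RNA subtracted and to 0 in neurons of 5000 to 10000 UMIs. For Pcdhg the count moved to 5 with free RNA subtracted, which also put 1 Pcdha member among those called lower. Over all genes, 2.96% were called higher with doublets kept and 3.04% in neurons of 5000 to 10000 UMIs. With free RNA subtracted 3.87% of all genes were called higher and 9.5% lower, so that share moved too. Ratios above 1 were seen in 20 of the 21 Pcdhb, 11 of the 12 Pcdha and 17 of the 21 Pcdhg members, and the median ratio was 1.79, 1.16 and 1.22, beside a median of 1.01 over all genes. Just inside the threshold lay Pcdha12 at 1.56 and Pcdhga1 at 1.58, and just outside it Pcdha1 at 1.48 and Pcdha4 at 1.47.

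**Figure D1:**
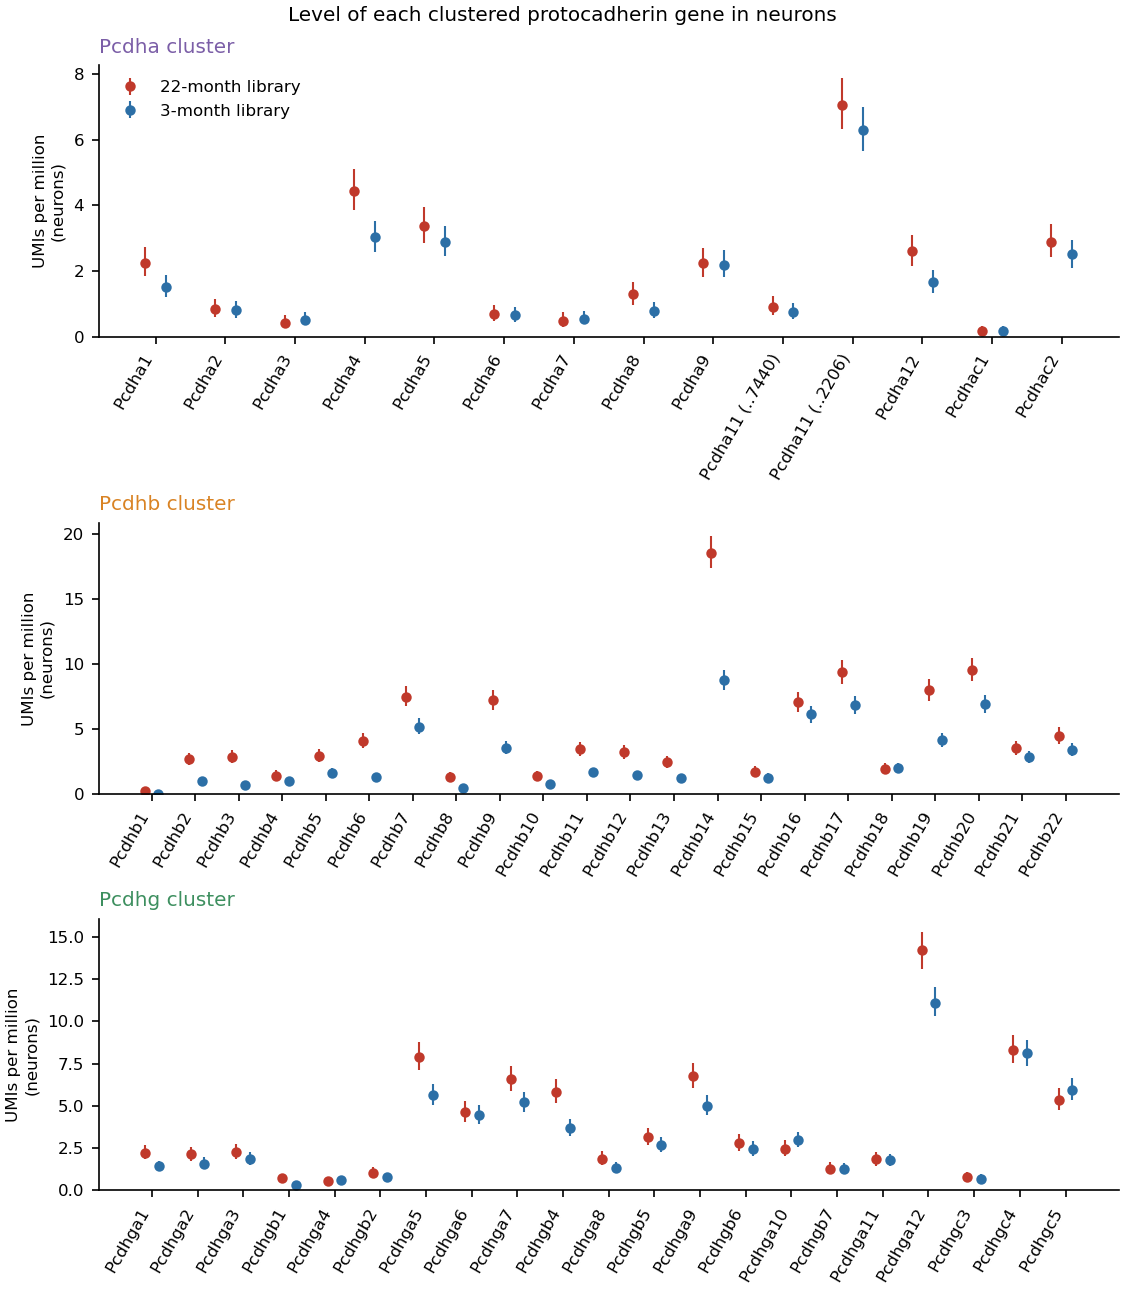
Level of each of the 57 members in neurons, in CPM, in the 22-month (red) and 3-month (blue) library, with members in their order along the locus and bars showing exact Poisson 95% intervals. Red points lie above blue ones for most Pcdhb genes, with Pcdhb14 at 18.6 against 8.78, while the C-type genes at the right end of Pcdha and Pcdhg lie close together.

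Alpha members are described first. The row Pcdha11 (ENSMUSG00000102206) held the most alpha UMIs, with 329 aged against 352 young UMIs, that is 23.8% and 25.8% of the cluster. Its ratio was 1.12 (0.962 to 1.31), so that its interval took in 1. Pcdha4 stood at 4.45 CPM in aged and 3.03 CPM in young neurons, a ratio of 1.47 (1.19 to 1.81). Pcdha12 stood at 2.60 and 1.67 CPM, a ratio of 1.56 (1.18 to 2.07). Both were thus higher in the aged library. Pcdha5 differed less, at 3.38 and 2.90 CPM with a ratio of 1.16 (0.928 to 1.46), and Pcdha9 stood at 2.24 and 2.20 CPM. The C-type gene Pcdhac2 had 135 and 140 UMIs and a ratio of 1.16 (0.907 to 1.48), and Pcdhac1 was close to the limit of detection. The gene model of Pcdhac2 lies inside those of 13 other alpha members, and between 41.6% and 56.7% of all 100-base stretches of an alpha gene's exons also occur in another member, so alpha counts hold only the reads that the authors' counting gave to 1 gene.

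Beta members have almost no sequence in common at this length: 0.0% to 2.2% of their 100-base stretches occur in another member, except for Pcdhb21 (7.7%) and Pcdhb22 (5.4%). Pcdhb14 had the most UMIs, 866 in aged neurons against 490 in young, or 18.6 against 8.78 CPM, a ratio of 2.12 (1.9 to 2.37). It was seen in 15.2% of aged and 6.75% of young neurons. Its annotated exon is the longest of the cluster, and per kilobase of exon it stood at 2.14 CPM in aged and 1.01 CPM in young neurons, behind Pcdhb20 (2.68 and 1.94), Pcdhb9 (2.36 and 1.16) and Pcdhb7 (2.15 and 1.48), and in the young library also behind Pcdhb17 (1.47) and Pcdhb16 (1.18). A UMI counts 1 RNA molecule whatever its length, so these values per kilobase do not rank the levels of the genes. Of the cluster's UMIs, Pcdhb14 held 17.7% in aged and 14% in young neurons. Without this gene summed Pcdhb stood at 86.6 and 53.8 CPM, a ratio of 1.61 (1.53 to 1.69). Without the 10 members named for their ratio it stood at 51.3 and 38.1 CPM, a ratio of 1.34 (1.27 to 1.43). Those 10 were picked by their ratios in these same data. A fall was thus fixed in advance, and the value is not comparable with summed Pcdha.

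The largest ratio among called members was that of Pcdhb3, with 133 aged and 40 young UMIs, 2.86 against 0.717 CPM and a ratio of 3.99 (2.78 to 5.83). Pcdhb6 followed with 192 and 73 UMIs, a ratio of 3.16 (2.40 to 4.19). Pcdhb2 had 125 and 58 UMIs (2.59, 1.88 to 3.59). These UMIs were spread over many nuclei: no neuron held more than 3 UMIs of any of the 3 genes, and Pcdhb6 was seen in 3.56% of aged and 1.1% of young neurons. Pcdhb8 gave 62 and 29 UMIs, a ratio of 2.57 (1.63 to 4.14). Among better counted genes, Pcdhb9 had 336 and 198 UMIs and a ratio of 2.04 (1.70 to 2.44). Pcdhb19 had 372 and 233 UMIs and a ratio of 1.92 (1.62 to 2.27). For Pcdhb11, Pcdhb12 and Pcdhb13 the ratios were 2.06, 2.19 and 1.95.

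Other beta genes with many UMIs differed less. Pcdhb20 stood at 9.55 CPM in aged and 6.92 CPM in young neurons, a ratio of 1.38 (1.20 to 1.59), and Pcdhb17 at 9.37 and 6.84 CPM, a ratio of 1.37 (1.19 to 1.58). Pcdhb7 had a ratio of 1.45 (1.24 to 1.70). Pcdhb16 stood at 7.09 and 6.15 CPM, and its interval, 0.989 to 1.35, took in 1. The lowest ratio of the cluster was that of Pcdhb18, 0.994, with 92 and 111 UMIs. The order of the members hardly differed between the libraries: over the 22 beta genes the levels had a Spearman rho of 0.92, which is a description over genes that share a library and its depth, and the corresponding values were 0.97 for both Pcdha and Pcdhg.

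**Figure D2:**
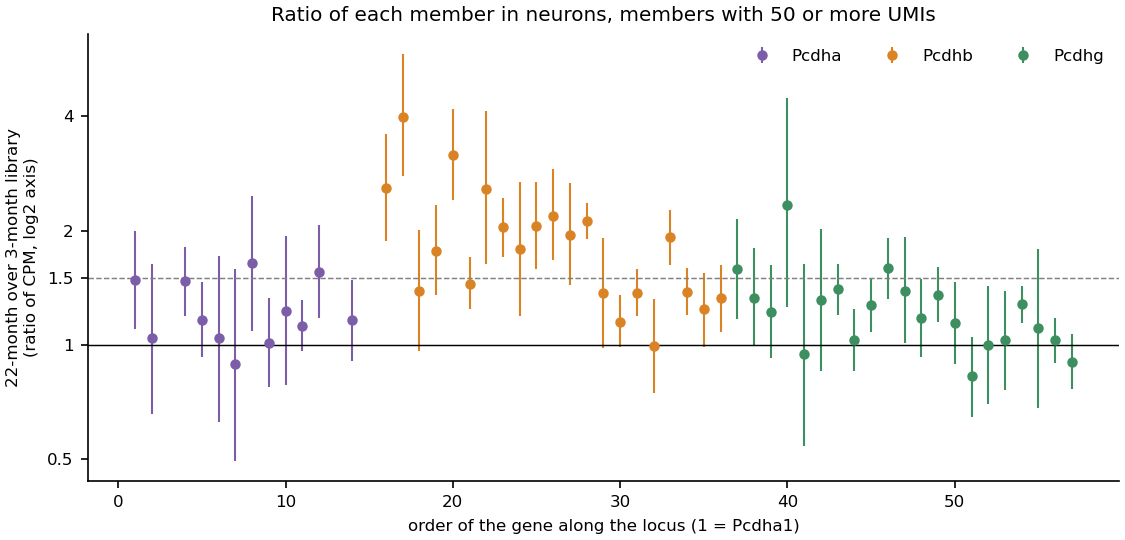
Ratio of CPM, 22-month over 3-month library, for the 54 members with 50 or more UMIs in neurons, on a log2 axis against the order of the gene along the locus, with exact 95% counting intervals. The solid line marks a ratio of 1 and the dashed line 1.5; most beta genes from Pcdhb2 to Pcdhb14 sit above the dashed line, and the C-type genes at the far right lie around 1.

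Set out along the locus, the ratios of the beta genes were not alike. The genes Pcdhb1 to Pcdhb14 together gave 59.5 CPM in aged and 29.0 CPM in young neurons, a ratio of 2.05 (1.93 to 2.18), and 11 of the 13 that met the minimum were called. Pcdhb15 to Pcdhb22 gave 45.8 and 33.6 CPM, a ratio of 1.36 (1.28 to 1.45), and 1 of 8 was called, Pcdhb19. This division was chosen after the values had been seen and is a description. Without Pcdhb14 the first stretch, Pcdhb1 to Pcdhb13, still stood at 40.8 and 20.2 CPM, a ratio of 2.02 (1.87 to 2.18). Member ratios ran from 1.39 (Pcdhb4) to 3.99 (Pcdhb3) in the first stretch and from 0.994 to 1.92 in the second.

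Gamma members fall into A-, B- and C-types. The 12 A-type genes together stood at 53.5 CPM in aged and 43.0 CPM in young neurons, a ratio of 1.24 (1.17 to 1.32). Pcdhga12, the gamma gene with the most UMIs (660 and 621), stood at 14.2 and 11.1 CPM, a ratio of 1.28 (1.14 to 1.43). Per kilobase of its own exons it had the highest value of all members in both libraries, at 3.12 and 2.45 CPM. Close behind were Pcdhga5 in the aged library (3.11) and Pcdhgc4 in the young one (2.33). As for the beta genes, values per kilobase do not rank levels. Gamma genes also share exon sequence with each other, which beta genes hardly do. Pcdhga5 stood at 7.91 and 5.64 CPM, a ratio of 1.40 (1.20 to 1.63). Pcdhga9 and Pcdhga7 had ratios of 1.35 and 1.27, whereas Pcdhga10 was lower in the aged library, at 2.47 against 2.99 CPM, with an interval, 0.646 to 1.05, that took in 1. The 6 B-type genes stood at 14.8 and 11.2 CPM, a ratio of 1.32 (1.19 to 1.48). Of them Pcdhgb1 and Pcdhgb4 were called, the first on only 33 and 17 UMIs and the second on 271 and 205.

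The 3 gamma C-type genes together stood at 14.5 CPM in aged and 14.7 CPM in young neurons, a ratio of 0.981 (0.885 to 1.09), an interval that lay below those of the A- and B-type sums. Single A- and B-type genes also lay near or below 1, such as Pcdhga10 above, Pcdhga4 (0.945), Pcdhgb7 (1.00), Pcdhga6 (1.03) and Pcdhga11 (1.03). Pcdhgc4 had 387 and 452 UMIs, or 8.32 and 8.10 CPM, a ratio of 1.03 (0.895 to 1.18). Pcdhgc5 stood at 5.37 and 5.95 CPM, a ratio of 0.903 (0.764 to 1.07). Pcdhgc3 was low in neurons, at 0.774 and 0.699 CPM on 36 and 39 UMIs, and its ratio of 1.11 became 2.21 with free RNA subtracted. Between 25.9% and 62.7% of the 100-base stretches of a gamma gene's exons occur in another member, for the same reason as in the alpha cluster.

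Nuclei were then divided into classes by markers, with the clustered protocadherins left out of the clustering. Oligodendrocyte precursors had the highest summed Pcdhb level, 203 CPM in the aged and 130 CPM in the young library, which was 1.93 (1.65 to 2.25) and 2.07 (1.74 to 2.46) times the level in neurons. The aged interval, 174 to 237 CPM, overlapped that of astrocytes (141 to 212 CPM), and the young one, 109 to 153 CPM, did not overlap that of any other of the 5 classes. These levels rested on 167 UMIs in 183 aged and 138 UMIs in 254 young nuclei. Pcdhb9 alone gave 62 and 27 of these UMIs, a larger part in the aged library. It stood at 75.5 against 25.4 CPM, a ratio between libraries of 2.97 (1.86 to 4.86). Within each library Pcdhb9 was higher in precursors than in neurons, by 10.5 times (7.84 to 13.7) in aged and 7.16 times (4.60 to 10.7) in young. In precursors 7.14% of 6527 genes with 50 or more UMIs were called higher in aged, and Pcdhb9 was the 1 member with that many. In oligodendrocytes, the cells that precursors give rise to, Pcdhb9 was below its neuron level, at 2.45 and 1.60 CPM on 10 and 7 UMIs.

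Astrocytes had 173 CPM of Pcdhb in the aged and 61.4 CPM in the young library, a ratio of 2.82 (2.06 to 3.88), on 97 and 73 UMIs. There the gene with the most UMIs was Pcdhb14, with 28 and 19 UMIs and 50.1 against 16 CPM, above its neuron level by 2.69 times (1.78 to 3.91) in aged and 1.82 times (1.09 to 2.87) in young. Oligodendrocytes had 69.5 and 33.7 CPM of Pcdhb, a ratio of 2.06 (1.68 to 2.53), and microglia had 32.0 and 11.7 CPM on only 30 and 11 UMIs. Summed Pcdhb was thus higher in the aged library in each of the 5 classes named here. In precursors its ratio was 1.57 (1.24 to 1.98). That ratio rested in part on Pcdhb9, with 62 of 167 aged and 27 of 138 young UMIs, and was not computed without it. Among single Pcdhb genes with a UMI in a class, the aged value was the higher in 20 of 21 in oligodendrocytes, 16 of 22 in precursors, 18 of 21 in astrocytes and 9 of 13 in microglia. Over all genes with 50 or more UMIs in the class that share was 64.4%, 53.0%, 53.6% and 56.1%, a minimum that most members did not meet there. These shares are therefore no matched background for members with few UMIs. Astrocytes gave 559381 aged and 1188464 young UMIs in total. Genes with equal or fewer aged UMIs were thus also scored as higher there, such as Pcdhb9 (2 and 2) and Pcdhb16 (6 and 7). Equal counts in precursors, such as 5 and 5 for Pcdhb19, were scored likewise. Microglia, the class lowest in Pcdhb, lay below the level in barcodes of 100 or fewer UMIs in both libraries, oligodendrocytes also lay below it, and precursors lay above it in both. Astrocytes lay above it clearly in the aged library, where the interval of their Pcdhb level did not reach that of the barcodes, and close to it in the young one. In oligodendrocytes 7.04% of 10930 genes with 50 or more UMIs were called higher in aged, and Pcdhb17 was the 1 Pcdhb gene with that many UMIs, at 9.30 and 4.33 CPM (2.15, 1.21 to 3.94).

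Gamma genes showed another pattern. Summed Pcdhg stood in precursors at 106 CPM in the aged and 124 CPM in the young library, a ratio of 0.853 (0.643 to 1.13). It stood at 98.3 and 90.0 CPM in astrocytes, at 58.0 and 52.7 CPM in oligodendrocytes and at 92.9 and 58.7 CPM in microglia, where the ratio was 1.58 (1.12 to 2.26) on 87 and 55 UMIs. Pcdhga12 led the gamma genes by UMIs in oligodendrocytes, with 45 and 42. In precursors it had 11 and 21, the most in the young library, whereas Pcdhga5 had 12 in the aged one. Pcdhgc3 was higher in precursors than in neurons in both libraries, at 6.09 and 12.2 CPM on 5 and 13 UMIs. It was also above the neuron level in astrocytes, at 5.36 and 5.05 CPM on 3 and 6 UMIs.

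Outside neurons alpha UMIs were few. Oligodendrocytes had 5.38 CPM in aged and 3.88 CPM in young, microglia 4.27 and 1.07 CPM and astrocytes 8.94 and 0.841 CPM, the last on 5 UMIs and 1 UMI. These lay below the 13.5 and 18.6 CPM of barcodes with 100 or fewer UMIs. Precursors had 15.8 and 20.7 CPM on 13 and 22 UMIs, close to that background.

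**Figure D3:**
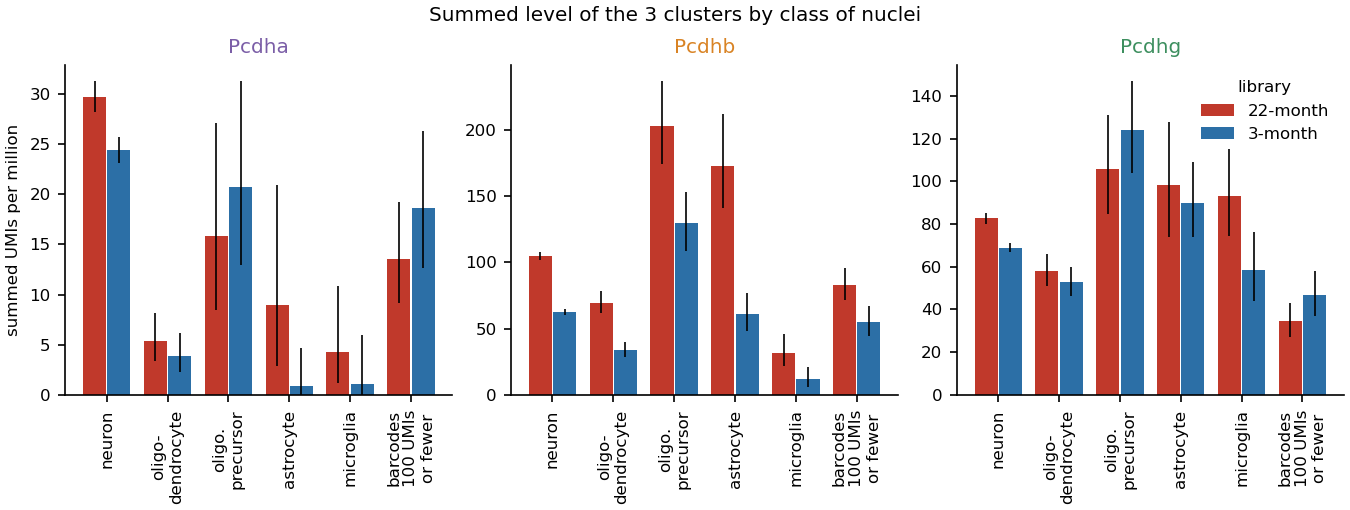
Summed level of each cluster, in CPM, in 5 classes of nuclei and in barcodes of 100 or fewer UMIs, for the 22-month (red) and 3-month (blue) library, with exact Poisson 95% intervals. Pcdhb is highest in oligodendrocyte precursors and higher in red than in blue in every group shown, Pcdha is highest in neurons, and Pcdhg is at a similar level in several classes.

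Neurons were split into 28 sub-clusters, again without the members, and called by their leading genes; 26 of them held 20 or more nuclei in each library. Their leading genes include Drd1, Drd2 and Adora2a, which mark striatal neurons, and Tcf7l2, used by thalamic neurons, beside those of the labelled hypothalamus. Pcdhb was higher in the aged library in 26 of 26 sub-clusters, with an interval above 1 in 23. The ratios ran from 1.32 to 2.81 with a median of 1.67. Pcdha was higher in 18 of 26 (interval above 1 in 5) and Pcdhg in 21 of 26 (interval above 1 in 8), and neither had an interval below 1 in any. The sub-clusters share libraries, so these counts are no repeated measurements of the difference.

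The sub-cluster led by Folh1, Rreb1 and Ntng2 had the highest Pcdhb level in both libraries, at 187 CPM in aged and 120 CPM in young (269 and 384 nuclei). Those led by Ust, Sema5b and Rbm20 (171 and 88.9 CPM) and by Chst9, Tshz1 and Nfib (131 and 95.6 CPM) followed. In the young library the order of these last was the reverse, and their intervals overlapped. The smallest ratio was seen in the sub-cluster led by Pde1c, Ccdc88c and Prkch, at 88.8 against 67.3 CPM (1.32, 1.09 to 1.60). At the other end, the sub-cluster led by Vip, Prr5l and Rorb, of which Vip marks suprachiasmatic neurons, stood at 120 and 42.7 CPM (2.81, 1.77 to 4.56), from the lowest place in the young library. It had the highest Pcdhg level in the young library, 117 CPM, and 126 CPM in the aged one. The lowest Pcdhg level in both was that of the sub-cluster led by Gbx1, Sox6 and Megf10, at 38.5 and 35.6 CPM, although its Pcdhb level, 109 and 66.1 CPM, was near the median of 108 and 64.4 CPM. Over the 26 sub-clusters the levels of the libraries had a Spearman rho of 0.77 for Pcdhg, 0.56 for Pcdhb and 0.38 for Pcdha.

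**Figure D4:**
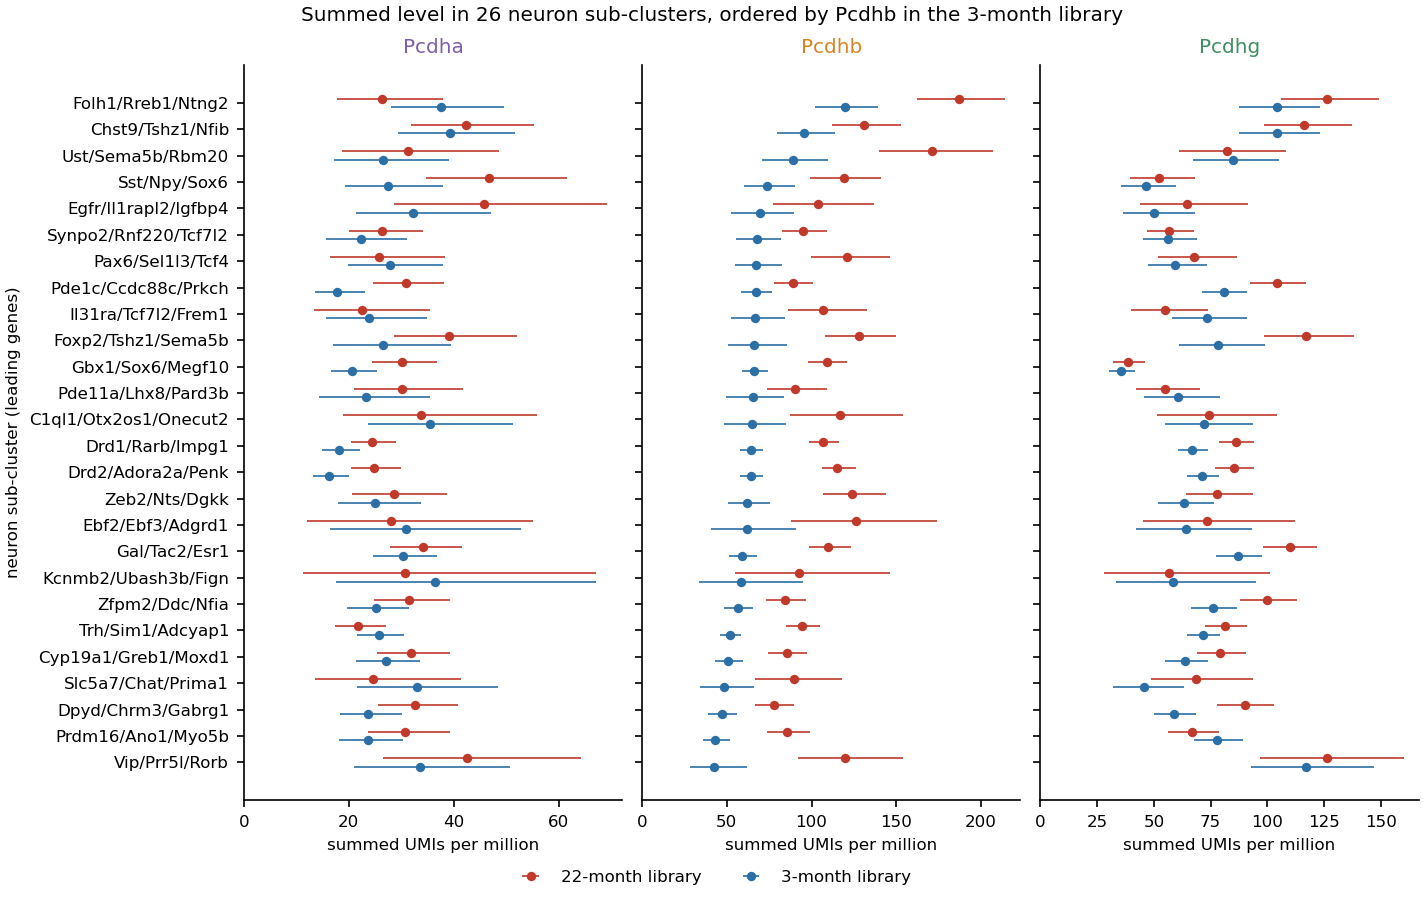
Summed level of each cluster, in CPM, in 26 neuron sub-clusters named by their leading genes, in the 22-month (red) and 3-month (blue) library, with exact Poisson 95% intervals. In the Pcdhb panel each red point lies to the right of its blue point, while in the Pcdha and Pcdhg panels many pairs overlap.

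GABAergic neurons, the large majority (4268 aged and 5362 young nuclei), had 107 and 63.8 CPM of Pcdhb, and glutamatergic neurons (649 and 930 nuclei) had 97.3 and 58.1 CPM. The Pcdhb ratio was 1.68 in both, with intervals of 1.60 to 1.76 and 1.5 to 1.88. Pcdha was higher in aged GABAergic neurons, at 30.7 against 23.8 CPM (1.29, 1.18 to 1.40), and stood at 24.8 against 25.5 CPM in glutamatergic ones (0.974, 0.798 to 1.19). For Pcdhg the ratios were 1.23 and 1.05. The glutamatergic nuclei include a sub-cluster led by Pdzrn3 and Slc17a7, with 1 aged and 72 young nuclei. Their mix of types thus differed between the libraries, and the glutamatergic ratios were not computed without that sub-cluster. With no replicate, whether the ratios differ between these types was not tested. The vasopressin and oxytocin sub-cluster, with Avp, Oxt and Sim1 as leading genes, held only 13 aged and 17 young nuclei and was not counted above; it had 13 and 2 Pcdhb UMIs, a ratio of 8.26 with an interval from 1.87 to 75.4. Its Pcdhg UMIs were 15 and 19, at 105 CPM in both libraries.

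Single members were too sparse for most sub-clusters. Pcdhb14 was higher in aged in 26 of 26, with its highest level in the aged library, 36.7 CPM, in the Vip-led sub-cluster. Pcdhb19 was higher in 25 of 26 and was highest in the Folh1-led sub-cluster in both libraries, at 19.1 and 10.3 CPM on 21 and 14 UMIs. Pcdhga12 was highest in the Vip-led sub-cluster in both, at 29.0 and 19.8 CPM. Of the 54 members that met the minimum, 4 had the same top sub-cluster in both libraries: Pcdhb19, Pcdhga12, Pcdhga1 and Pcdhga10, of which Pcdhga1 and Pcdhga10 are named because the count is small. Pcdhgc4 had its highest level in the Chat-led cholinergic sub-cluster in aged, 21.1 CPM, and in the Kcnmb2-led one in young, 25.5 CPM, on 12 and 7 UMIs.

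To count members per nucleus at equal depth, each neuron was thinned to 4000 UMIs, which left out 356 aged and 696 young neurons. At that depth a neuron showed on average 0.858 members if aged and 0.616 if young, with standard deviations over nuclei of 0.937 and 0.787. For Pcdhb the means were 0.408 and 0.246, a ratio of 1.66 (1.54 to 1.78). For Pcdhg they were 0.334 and 0.274, and for Pcdha 0.116 and 0.0957. At least 1 Pcdhb gene was seen in 32.9% (31.5 to 34.2) of aged and 21.3% (20.2 to 22.4) of young neurons, and at least 2 in 6.53% and 3.09%. Without thinning, 79.8% of aged and 67.8% of young neurons had a member, and the most members in a nucleus were 12 and 10.

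Thinned to 1000 UMIs, so that glia could be set beside neurons, 9.93% of aged and 5.94% of young neurons had a Pcdhb UMI. In microglia, the class lowest in Pcdhb, the shares were 3.93% and 0.864%, and unthinned they were 6.33% and 2.10% at median depths of 2136 and 1806 UMIs. Precursors had 18.0% and 14.6%, astrocytes 14.9% and 5.70% and oligodendrocytes 6.62% and 3.51%. The share was higher in the aged library in all 5 classes, and in precursors the intervals (12.8 to 24.4 and 10.5 to 19.5) overlapped.

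Whether a neuron repeated the same member was read from pairs of UMIs of one cluster. Within single aged neurons 22.5% of the 298 Pcdha pairs came from the same gene, and between neurons of the same sub-cluster and library 12.3% did. In the young library the shares were 22.7% of 255 pairs and 12.6%. In both libraries the share within nuclei was thus the higher. An alternative added after the data had been seen took only neurons of 5000 to 10000 UMIs. There pairs between nuclei were taken over all neurons of that depth in a library, not split by sub-cluster. The share within was 15.4% (8 of 52 pairs) in aged and 22.7% (17 of 75) in young, against 12.6% and 12.8% between nuclei. These pairs are too few to say whether the libraries differ at that depth. For Pcdhb the libraries differed: 11.5% of 3973 pairs within aged neurons came from the same gene, but 18.0% of 1647 pairs within young neurons, while the shares between nuclei were close, at 8.05% and 7.85%. At that depth the Pcdhb shares within nuclei were 9.88% and 21.9%. For Pcdhg the shares within nuclei were 9.84% and 12.3%, and between nuclei 8.09% and 8.35%. Over neurons of 5000 to 10000 UMIs they were 8.92% and 15.4% within, against 8.30% and 8.67% between, again not split by sub-cluster. This left little excess in the aged library. Pairs of a nucleus share UMIs and are not independent, so no interval is given. The Pcdhb level in free RNA, given above, also differed between the libraries, and its part in the pair shares was not tested.

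Repeats came mostly from the genes with many UMIs. Among young neurons 49 held 2 or more UMIs of Pcdhb14, 38 of Pcdhb20 and 36 of Pcdhb7. The corresponding numbers among aged neurons were 94, 40 and 37, although Pcdhb7 was seen in 311 aged and 249 young neurons and Pcdhb20 in 402 and 341. Pcdhga12 had 2 or more UMIs in 52 aged and 41 young neurons. Pairs of different Pcdhb genes in a neuron were neighbours along the locus in 10.5% of cases in aged and 13.9% in young, against 8.43% and 9.82% for pairs from different neurons of a library. The Pcdha shares were 12.6% and 12.2% within and 13.8% and 13.2% between, without an excess. Over neurons of 5000 to 10000 UMIs the aged shares were 9.09% within, on 4 of 44 pairs, and 13.5% between. The young shares at that depth were 17.2% within, on 10 of 58 pairs, and 14.1% between, so these few pairs went opposite ways. Pcdhg pairs were neighbours in 9.24% within and 9.01% between in aged and in 11.6% and 9.49% in young, so that the excess was in the young library.

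**Figure D5:**
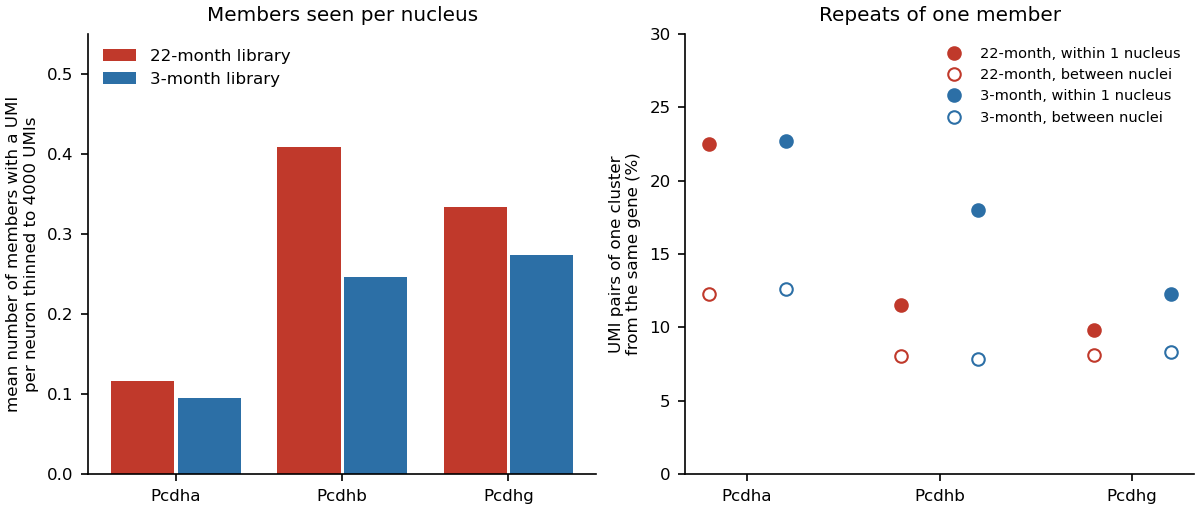
Left, mean number of members with a UMI per neuron after thinning to 4000 UMIs, by cluster, in the 22-month (red) and 3-month (blue) library. Right, share of UMI pairs of a cluster that come from the same gene, in percent, for pairs within 1 neuron (filled) and between neurons of the same sub-cluster (open); filled points lie above open ones in all 3 clusters, and for Pcdhb the filled point is at 11.5% in red and 18.0% in blue.

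Other genes of the same biology were read from lists. The 29 measured chromatin factors that act on protocadherin promoters had a median ratio of 1.03, and 0 were called in either direction. Dnmt3a, a DNA methyltransferase, stood at 231 CPM in aged and 287 CPM in young neurons (0.806, 0.786 to 0.826), and the demethylating enzyme Tet3 at 83.9 and 99.1 CPM (0.846, 0.812 to 0.882). Hnrnpu, a nuclear RNA-binding protein, stood at 214 and 188 CPM (1.14, 1.11 to 1.17). Intracellular partners of the proteins, such as kinases and the WAVE actin regulators, gave a median of 1.03 over 20 genes with 0 called. Among them the kinase Prkca stood at 274 and 320 CPM, Ctnnb1, the beta-catenin gene, at 61.9 and 52.5 CPM, and Wasf1, a WAVE subunit, at 116 and 103 CPM. Non-clustered protocadherins, of which Pcdh1 and Pcdh12 are also among the genes flanking the locus, gave a median of 0.993 over the 11 of 12 that met the minimum, again with 0 called. Pcdh19 stood at 75.2 and 67.1 CPM, Pcdh9 at 2632 and 2484 CPM and Pcdh15 at 957 and 1021 CPM. For lists of 29, 20 and 11 genes, 0 called higher is close to the 3.00% called over all genes. Most list genes also had far more UMIs than the Pcdhb genes. Ctcf, for example, had 2799 aged and 3219 young UMIs, against a median Pcdhb member of 155.5 and 93. Counting error thus moves the ratios of list genes less, and these 3 lists are no matched comparison for the 12 called Pcdhb genes.

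Of 17 other annotated genes inside the locus 8 met the minimum, 1 of which was called higher and 2 lower. The long non-coding RNA 3222401L13Rik, between the beta and gamma clusters, stood at 24.5 CPM in aged and 12.5 CPM in young neurons (1.96, 1.78 to 2.16). Its level was higher in glia, at 92.3 and 81.2 CPM in oligodendrocytes (1.14, 0.981 to 1.32) and 94.7 and 73.2 CPM in astrocytes (1.29, 0.902 to 1.84). Precursors had 51.1 and 45.2 CPM (1.13, 0.73 to 1.75). The part of glial or free RNA in its neuron ratio was not tested. In microglia it was lower in the aged library, at 153 against 201 CPM (0.762, 0.608 to 0.952), unlike summed Pcdhb there. The minus-strand genes Gm29994 and Gm10544, which overlap gamma and alpha models, were lower in aged neurons, at 4.34 against 7.99 CPM and 14.6 against 23.1 CPM. The labels and headers do not say whether the counting used strand, so reads of such genes and of the members they overlap may not be separable. Of 20 protein-coding genes on either side 17 met the minimum, with E230025N22Rik called higher (4.32 and 1.59 CPM), Dnd1 called lower (0.860 and 1.56 CPM) and Ndufa2 at 42.5 and 35.4 CPM. Most beta genes are annotated with a single exon (Pcdhb2, Pcdhb6, Pcdhb8 and Pcdhb22 have 2), and they were set beside the 315 other protein-coding genes of a single exon that met the minimum, a list added after the data had been seen: 6.03% of these were called higher in aged neurons, with a median ratio of 1.09, against 12 of the 21 Pcdhb genes with a median of 1.79. Of those with 2 exons, Pcdhb2, Pcdhb6 and Pcdhb8 are among the 12.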

How the data were processed

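Single-nucleus RNA was measured with 10x Genomics chemistry in 1 library per age. The deposited files hold UMI counts per gene and barcode, unfiltered. Per the file headers they were written by Cell Ranger software version 4, and Cell Ranger is also named in the submitters' processing notes. For genome build, annotation, strand setting and reads that match several genes, the authors' choices are stated by neither labels nor headers. Gene positions and lengths came from GENCODE M21.

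Barcodes with 500 or more genes and at most 5% mitochondrial counts were kept, and doublets marked by Scrublet (scanpy 1.11.5) were removed, 4.34% of aged and 4.65% of young. Counts were scaled to 10000 UMIs, and 2000 variable genes without the members, 30 principal components and 15 neighbours were used for Leiden clusters (resolution 1). A cluster took the name of the marker list with the highest mean of marker levels, each as a share of that marker's highest cluster, with at least 3 markers detected. This replaced the planned mean log2 fold against all other nuclei, which misnamed clusters.

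Ratios are CPM aged over CPM young, with conditional binomial intervals. Levels have Poisson and shares Clopper-Pearson 95% intervals. No test was made. The interval code was tested on simulated data. Named with values were, per cluster, the 6 members with most neuron UMIs, the 10 whose ratio had the interval bound farthest from 1, the C-type members, 3 genes per list and 3 members per non-neuronal class; Pcdha1, Pcdha3, Pcdhb1, Pcdhb4, Pcdhb18, Pcdhb22, Pcdhga4, Pcdhga6, Pcdhga11, Pcdhgb7, Pcdhgb1, Pcdhgb4, Pcdhga1 and Pcdhga10 were named after their values had been seen. Members and lists were chosen with earlier results of these data known. Alternatives covered filters, doublets, scaling, free RNA, minima, thresholds, resolution and depth.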

Additional observations from a re-analysis of the deposited data

Results flagged for a closer look

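All 57 members were scanned over neurons and the glial classes for intervals on opposite sides of 1, which picked out Pcdhga7. In oligodendrocyte precursors its ratio of aged to young CPM was 0.259 (0.048 to 0.915) on 3 aged and 15 young UMIs, or 3.65 against 14.1 CPM, while in neurons it was 1.27 (1.08 to 1.5) on 307 and 290 UMIs. The difference was not tested and rests on few UMIs in the precursors. It was picked from many ratios, among which counting error alone can put some intervals to 1 side of 1.

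The low-depth cluster that was left unnamed, led by Oxt and ribosomal genes, held Pcdhb UMIs although it entered no comparison. It had 53 aged and 11 young UMIs, or 132 and 127 CPM, a ratio of 1.04 (0.537 to 2.21). Both levels lay above the 83.3 and 54.7 CPM of barcodes with 100 or fewer UMIs.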

How the results depend on the processing

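The ratio of summed Pcdhb in neurons ran from 1.66 to 1.70 over the alternatives that kept all its genes and was 1.61 without Pcdhb14; that of Pcdha ran from 1.19 to 1.26 and that of Pcdhg from 1.19 to 1.24. Of the summary values 158 stayed within their interval or within 1.5 times their count, and 15 did not. Several alternatives reuse nearly the same nuclei, such as the 4976 of 4995 aged neurons with 1000 or more genes, so staying there says little. The Pcdha members called higher, 2 in the report, were 4 with doublets kept, 4 with free RNA subtracted, and 0 both at a 2-fold threshold and in neurons of 5000 to 10000 UMIs. With free RNA subtracted 5 Pcdhg members in place of 3 were called higher, and 1 Pcdha member, also the 1 among all members, lower. That setting called 3.87% of all genes higher and 9.5% lower. The share of all genes called higher was 2.96% with doublets kept and 3.04% in neurons of 5000 to 10000 UMIs. At 2-fold 1 Pcdhg member and 9 of all members were called higher, beside 0.622% of all genes. Without thinning, the ratio of members per neuron was 1.79 for Pcdhb and 1.49 for all members. In neurons of 5000 to 10000 UMIs, an alternative chosen after seeing the data, pairs between nuclei were not split by sub-cluster. There the same-gene share within nuclei exceeded that between nuclei by 2.80 percentage points for aged Pcdha, 13.7 for young Pcdhb and 6.73 for young Pcdhg. Of single members, Pcdhb17 (1.17) and Pcdhgc5 (1.08) at that depth and Pcdhgc3 (2.21) with free RNA subtracted left their intervals; of genes with a ratio near 1, Pcdhgc5 (0.893 to 1.08), Pcdha9 (0.961 to 1.16) and Pcdhac1 (0.816 to 1.25) lay on both sides of 1 over the alternatives. In each case the cause was not tested. No paired analysis was possible because each age is 1 library. Members with few UMIs, and most members in glia, are limited by depth.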
